A study of Mus musculus with 6 samples.

Results

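The snoRNAs described here are of C/D length, below a limit that left 113 nt as the longest listed and 121 nt as the shortest listed snoRNA beyond it, and lie inside long non-coding host genes. They were chosen by annotation alone: a feature had to match a snoRNA of GENCODE release M21 (mouse, GRCm38) with both of its ends, and its smallest same-strand host gene had to be other than protein coding. The hosts Gas5 and Snhg1 and the Dlk1-Dio3 region of chromosome 12 were left out. Of 1823 features listed in the series, 443 were snoRNAs and 68 met the rule. GENCODE annotates 236 such snoRNAs in 21 hosts, so 168 had no read in any library. Of the 68, 43 lie in 1 host, Snhg14, and the other 25 lie in 17 hosts. A filter on low counts left 24 snoRNAs of 16 hosts for testing, and these 24 are the tested members, not all members.

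Small RNA libraries were made from mouse bone marrow cells of 2 genotypes, and the design names Lin- cells, the marrow fraction depleted of mature blood cells of each lineage. The 3 KO libraries carry the genotype label Mat KO, taken here as a mutation inherited from the mother, and the 3 WT libraries carry the label wildtype. The title of the series places the work at the imprinted Dlk1-Gtl2 locus. The sources used here do not give the deleted segment, nor the strain, sex and age of the mice. They also do not say whether each library is a separate animal, so the spread that p-values rest on may be technical. Wherever a value is given for each library of a genotype, the order is replicate 1, 2 and 3.

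C/D box snoRNAs are small nucleolar RNAs that pair with ribosomal RNA or other RNAs and guide fibrillarin to methylate the ribose of the paired base. They carry a box C near the 5′ end and a box D near the 3′ end, where the core proteins bind. Most vertebrate C/D snoRNAs are cut from introns of spliced host transcripts, and in hosts that encode no protein, such as the Snhg genes (small nucleolar RNA host genes), the spliced exons are often short-lived while the snoRNA is stable. The host exons were not among the features counted, so the levels below are those of the small RNAs only.

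The libraries held 45398303 to 53299322 counts, and 3 counts, the limit that a count of 0 allows, correspond to 0.0563 to 0.0661 CPM (each count as a share of all counts in its library, on the usual CPM scale). All snoRNA features of the targeted locus together had 3, 2 and 2 reads in the KO libraries and 87, 106 and 94 in the WT libraries, in the direction of the labels. Precursor regions of 4 haematopoietic miRNAs, Mir142, Mir155, Mir150 and Mir223, summed to 10.5 to 28.9 CPM over the 6 libraries, those of 9 stem and progenitor miRNAs to 40.2 to 94.9 CPM, and those of 3 erythroid miRNAs to 1.61 to 8.49 CPM. KO replicate 2 stood apart: 5 skeletal and cardiac muscle miRNA features (Mir1a-1, Mir1a-2, Mir133a-1, Mir133a-2 and Mir206) had 773 reads in it and 4 to 18 in each of the other 5 libraries. The whole list of 13 listed miRNA features of other tissues summed to 18.0 CPM in KO replicate 2 and to 0.681 to 2.07 CPM in the others. Their part in the values below was not tested. Without this library no member was called, and 7 of the 24 estimates were lower in KO and 17 higher. With all 6 libraries it was 12 and 12. The shift was not particular to this library: leaving out another single library gave 6 to 11 lower and 13 to 18 higher. In bulk RNA, fewer cells of a type and less RNA per cell cannot be told apart.

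The sequences of the 12 tested members with the highest mean level are shown first, with relatives that may share their reads or their guide. Snord93 and its near copy Mir3096, which are not close relatives of those 12, come last. The boxes tell which of these short RNAs are C/D snoRNAs in more than length. All sequences are GENCODE M21 transcripts on GRCm38, written as DNA 5′ to 3′. Capitals mark TGATGA, the core of box C, where it ends within the first 25 bases, and the last CTGA, box D, where it starts within the last 20 bases.
Snord49a: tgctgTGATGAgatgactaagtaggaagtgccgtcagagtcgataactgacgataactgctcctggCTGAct
Snord49b: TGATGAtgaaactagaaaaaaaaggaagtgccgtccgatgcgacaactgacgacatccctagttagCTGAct
Snord65: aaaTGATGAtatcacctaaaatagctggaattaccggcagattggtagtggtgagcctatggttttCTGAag
Gm25878: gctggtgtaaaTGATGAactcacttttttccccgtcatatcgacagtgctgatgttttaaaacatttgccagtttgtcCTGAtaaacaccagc
Snord12: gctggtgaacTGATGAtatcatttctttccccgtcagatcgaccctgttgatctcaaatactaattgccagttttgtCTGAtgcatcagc
Gm23201: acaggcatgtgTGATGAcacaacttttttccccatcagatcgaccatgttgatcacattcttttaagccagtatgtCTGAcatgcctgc
Snord87: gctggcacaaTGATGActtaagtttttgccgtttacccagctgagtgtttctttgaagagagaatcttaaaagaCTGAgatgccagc
Snord99: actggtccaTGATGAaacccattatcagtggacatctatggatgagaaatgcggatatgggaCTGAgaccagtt
Snord52: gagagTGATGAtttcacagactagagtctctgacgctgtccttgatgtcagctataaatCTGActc
Gm25744: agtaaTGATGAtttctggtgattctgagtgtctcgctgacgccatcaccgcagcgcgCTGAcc
Snord1b: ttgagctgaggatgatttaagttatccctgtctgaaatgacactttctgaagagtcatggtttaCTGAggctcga
Snord1c: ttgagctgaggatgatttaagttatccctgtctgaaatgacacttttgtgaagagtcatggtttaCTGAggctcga
Snord1a: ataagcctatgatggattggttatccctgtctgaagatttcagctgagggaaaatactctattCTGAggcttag
Snord50a: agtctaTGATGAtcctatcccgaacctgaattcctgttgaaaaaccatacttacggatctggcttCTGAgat
Snord50b and Gm26135: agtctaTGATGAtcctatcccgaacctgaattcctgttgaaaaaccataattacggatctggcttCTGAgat
Gm23017: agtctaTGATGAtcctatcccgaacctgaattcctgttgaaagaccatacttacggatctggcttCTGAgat
Snord93: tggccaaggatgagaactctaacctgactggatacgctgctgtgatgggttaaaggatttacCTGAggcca
Mir3096: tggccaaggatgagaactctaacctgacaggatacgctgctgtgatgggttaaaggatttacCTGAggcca

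Both boxes were found in 18 of the 24 tested members (75.0%), against 302 of 534 annotated snoRNAs below the length limit (56.6%) and 8 of 973 above it (0.822%). The annotated sets were not filtered by level, and the 534 include the members. The other 6 tested members were Snord1a, Snord1b, Snord1c, Snord93, Mir3096 and Gm26003. All but Gm26003 held the box D letters. Gm26003, of 113 nt in Snhg17, had neither, and RefSeq lists its position as a pseudogene, so the label C/D rests on its length alone. A missing match says only that these letters are not in the window. At the length limit, Gm26003 had 0.722, 0.116 and 0.402 CPM in KO and 0.657, 0.352 and 0.532 CPM in WT, and the shortest listed snoRNA of such hosts beyond it was Snora26 of Dancr, of 121 nt, with 15.8, 23.5 and 28.5 CPM in KO and 29.7, 18.4 and 23.1 CPM in WT.

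Several members are relatives by sequence. Snord49a and Snord49b share the stretch AGGAAGTGCCGTC, and Snord1a shares GTTATCCCTGTCTGAA with both Snord1b and Snord1c, which differ from each other by 2 edits. Snord50b in Snhg5 and Gm26135 in 9330159M07Rik are identical over 72 nt. Against Snord50a, both have the change C50A and Gm23017 has A43G, and Mir3096 differs from Snord93 by T29A, with positions counted from 1 at the 5′ end. Mir3096 carries a miRNA symbol although GENCODE types it as a snoRNA. The sources used here do not say how reads with several matches were counted. The counts of the near-identical relatives are therefore uncertain singly: the Snord50 family, Snord1b with Snord1c, and Snord93 with Mir3096. Snord49a and Snord49b were 69.4% identical, and Snord1a and Snord1b 62.7%.

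The genotypes were compared over all features with edgeR's quasi-likelihood test. None of the 24 tested members was called at an adjusted p under 0.05, beside 1 of 624 features in all (0.16%), and DESeq2 called none of them either. At an unadjusted p under 0.05 none of the 24 passed by edgeR, where 6.41% of all features did. Snord65 passed that level with DESeq2 and, in edgeR, with RLE factors, with at least 50 counts in 3 libraries, with copies summed and without KO replicate 2. Snord123 passed it with TMM factors from C/D-length snoRNAs, and Snord87 and Gm23201 without KO replicate 1. Estimates were lower in KO for 12 members and higher for 12, where 59.1% of all features had a lower estimate. The median log2 fold change was 0.02 for the 24 and -0.08 for all tested features, and all 24 estimates lay between -0.44 and 0.29. A p that misses the threshold does not show that levels were alike, and the median standard error (SE) of the 24 was 0.18 on the log2 scale.

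**Figure D1:**
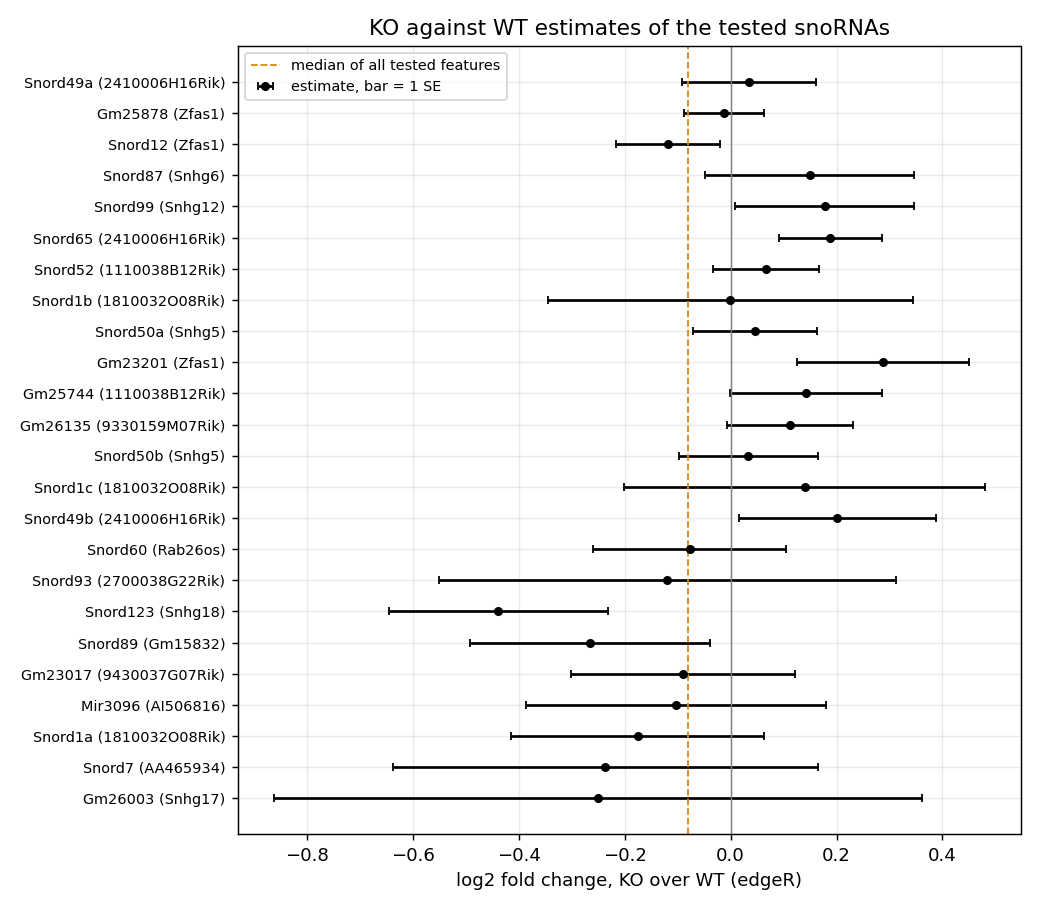
Log2 fold change of KO over WT for each tested snoRNA (host in brackets), ordered by mean level, with bars of 1 SE from edgeR's quasi-likelihood fit; the dashed line is the median of all tested features (-0.08). The estimates run from -0.44 for Snord123 to 0.29 for Gm23201.

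Together the 68 snoRNAs took a large share of each library. They held 15.9%, 17.6% and 15.4% of the counts in the KO libraries and 17.7%, 16.3% and 16.9% in the WT libraries. Their summed level was 163033 ± 11554 CPM in KO and 169610 ± 6934 CPM in WT (SD, n = 3 each), and the groups overlapped. Snord49a alone averaged 91380 CPM in KO and 93726 CPM in WT, more than all other members together. Without Snord49a the sum was 71653 ± 3484 CPM in KO and 75884 ± 2214 CPM in WT, again with overlap. Relative to the summed C/D-length snoRNAs of ribosomal protein genes, another large class of intron-borne C/D snoRNAs, the ratio of all 68 was 0.630 ± 0.091 in KO and 0.627 ± 0.043 in WT. Relative to the snoRNAs of Gas5 and Snhg1 it was 0.460, 0.457 and 0.409 in KO and 0.505, 0.479 and 0.498 in WT. These last groups did not overlap, with every KO library below every WT library. The summed level of the Gas5 and Snhg1 snoRNAs themselves was 369333 ± 21083 CPM in KO and 343413 ± 5654 CPM in WT. Here the groups overlapped, with KO replicate 1 at 345466 CPM below WT replicate 1 at 349938 CPM. Without KO replicate 2 the log2 ratio of the members' summed means was -0.12, against -0.06 with it, and that of the ratio to ribosomal protein hosts was -0.11, against 0.0072. No test was made on these sums.

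None of the host classes of C/D-length snoRNAs compared here held a call. Of 37 tested in ribosomal protein genes, 19 had lower and 18 higher estimates (median log2 fold change -0.00), of 66 in other protein-coding genes 30 and 36 (0.02), and of 17 in Gas5 and Snhg1 4 and 13 (0.10). By edgeR 1, 1 and 2 of them had an unadjusted p under 0.05. Whether the classes differ was not tested.

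**Figure D2:**
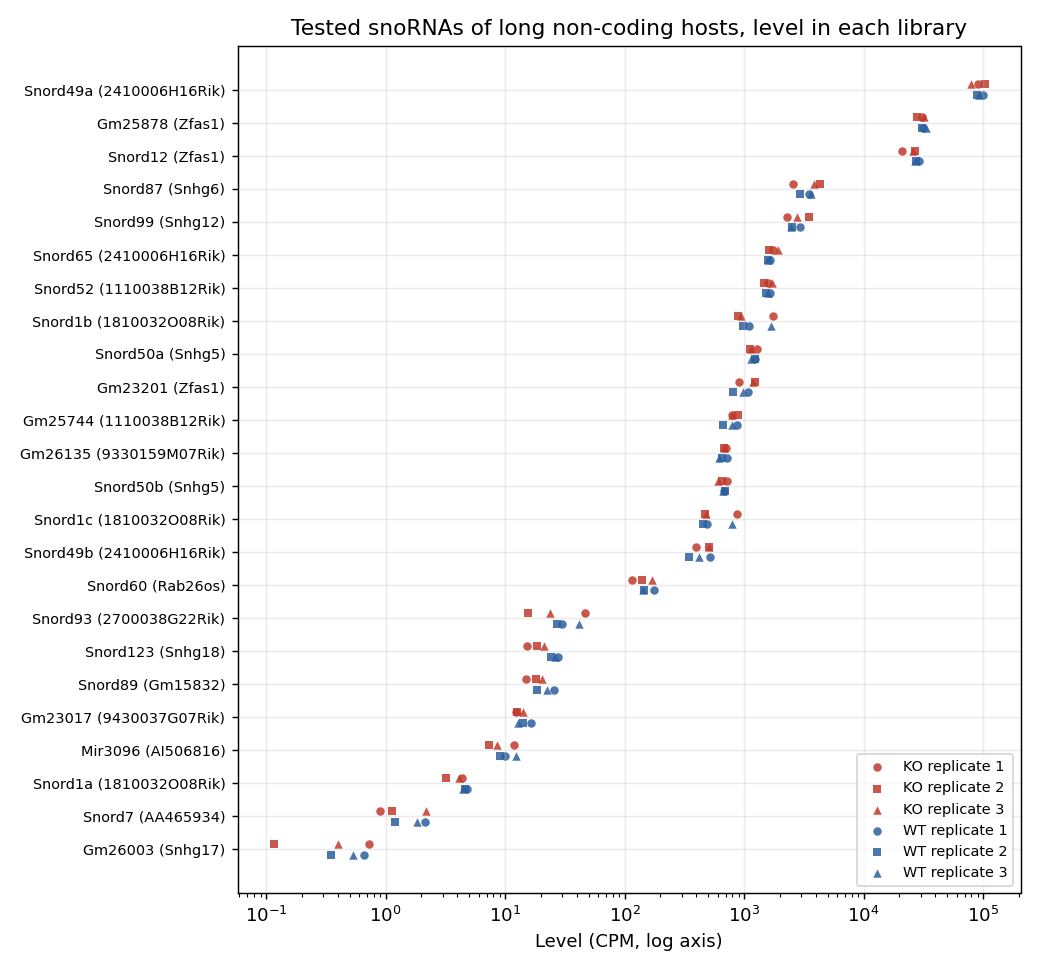
Level of each tested snoRNA (host in brackets) in every library, in CPM on a log axis, with KO points in red above WT points in blue and 1 marker shape per replicate number. Levels run from under 1 CPM for Gm26003 to about the level of Snord49a, which had 79512 to 103740 CPM, and the spread between replicates covers the distance between genotypes for most of them.

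The most abundant member was Snord49a, second of all 1823 features. In human, SNORD49A is known to guide methylation of 28S rRNA. It lies at chr11:62603450-62603521 on the plus strand, in an intron of 2410006H16Rik, a spliced long non-coding gene. Snord49a had 90889, 103740 and 79512 CPM in KO and 99452, 89575 and 92151 CPM in WT. KO libraries held both the highest and the lowest value. Its log2 fold change was 0.04 (SE 0.13, edgeR adjusted p = 0.947). Fold changes use TMM scaling, so a small one can differ in sign from the ratio of CPM means.

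The same host carries Snord49b and Snord65, at far lower levels. Snord65 (chr11:62604515-62604586), whose human counterpart guides 18S rRNA, had 1758, 1615 and 1919 CPM in KO and 1663, 1602 and 1589 CPM in WT. In CPM the groups overlapped through KO replicate 2. It had the second smallest p of the members (log2 fold change 0.19 with SE 0.10, edgeR adjusted p = 0.730). Without KO replicate 2 its log2 fold change was 0.31, and without each other library in turn it was 0.20 to 0.30. Snord49b, a relative of Snord49a, averaged 470 ± 62 CPM in KO and 427 ± 87 CPM in WT (SD, n = 3 each; log2 fold change 0.20 with SE 0.19, edgeR adjusted p = 0.759).

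Members of 1 host share a primary transcript, yet their levels differed widely. Per nucleotide of feature length, Snord49a was 197 ± 36 times as abundant as Snord49b in KO and 224 ± 35 times in WT. Against Snord65 the ratio was 52.5 ± 11.4 in KO and 57.9 ± 2.0 in WT. These ratios also carry whatever the size selection, ligation and PCR do to each RNA, which was not tested.

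Zfas1, the antisense gene at the Znfx1 promoter, hosts the Snord12 family, whose human members guide 28S rRNA. Gm25878 (chr2:167063473-167063565) had 31032, 28045 and 31860 CPM in KO and 31525, 31025 and 33345 CPM in WT. Snord12 (chr2:167065276-167065365) had 20995, 26800 and 25946 CPM in KO and 29044, 27641 and 26968 CPM in WT. Gm23201 (chr2:167064998-167065086) had 910, 1233 and 1196 CPM in KO and 1075, 810 and 972 CPM in WT. In CPM, Snord12 was below every WT library in all 3 KO libraries, while the groups of the other 2 overlapped. Log2 fold changes were -0.12 (SE 0.10) for Snord12, -0.01 (SE 0.08) for Gm25878 and 0.29 (SE 0.16) for Gm23201, the highest estimate of all members. Their adjusted p by edgeR were 0.759, 0.971 and 0.730. Without KO replicate 1, where Snord12 was lowest, its estimate was 0.06.

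Ratios between members of Zfas1 take out what the host shares. Per nucleotide, Snord12 was 21.9 ± 0.8 times as abundant as Gm23201 in KO and 29.3 ± 3.9 times in WT (SD, n = 3 each), and the groups did not overlap. Of 11 pairs of tested members that share a host, 2 had ratios whose groups did not overlap, the other being Snord1b to Snord1c. Over all 260 same-host pairs of tested snoRNAs with reads in every library, 12.7% did not overlap, and no test was made on ratios. The summed level of the 3 Zfas1 members was 56005 ± 3034 CPM in KO and 60802 ± 1162 CPM in WT, without overlap. With the sums divided by the TMM factors of the libraries, the groups overlapped, as KO replicate 2 then lay above WT replicate 2.

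Snord87 of Snhg6 and Snord99 of Snhg12 are each the single member of their host, though Snhg12 also holds the longer Snora44 and Snora61. Snord87 (chr1:9942463-9942549), whose human counterpart guides 28S rRNA, had 2548, 4308 and 3863 CPM in KO and 3501, 2936 and 3653 CPM in WT. Snord99 (chr4:132310691-132310764), likewise a 28S guide in human, had 2294, 3485 and 2801 CPM in KO and 2946, 2530 and 2471 CPM in WT. Both were lowest in KO replicate 1 and highest in KO replicate 2, so the KO range enclosed the WT range. Their log2 fold changes were 0.15 (SE 0.20) and 0.18 (SE 0.17), with adjusted p of 0.819 and 0.772 by edgeR. With KO replicate 1 left out the estimates were 0.42 for Snord87 and 0.39 for Snord99, and with KO replicate 2 left out they were 0.05 and 0.07. KO replicate 2 had the highest level of 5 members, Snord49a, Snord87, Snord99, Gm23201 and Gm25744, where it had the highest level of 19.6% of all tested features.

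1110038B12Rik hosts Snord52, a 28S guide in human, and Gm25744. Snord52 (chr17:34950952-34951017) had 1602, 1476 and 1723 CPM in KO and 1664, 1528 and 1602 CPM in WT. Gm25744 (chr17:34952013-34952075) had 789, 883 and 787 CPM in KO and 867, 672 and 798 CPM in WT. Both sets of libraries interleaved. The log2 fold changes were 0.07 (SE 0.10) and 0.14 (SE 0.14), with adjusted p of 0.838 and 0.779 by edgeR. That of Snord52 was 0.18 without KO replicate 2, and 0.09 to 0.18 without each other library in turn.

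The Snord50 family, whose human members guide 28S rRNA, lies in Snhg5 and in 2 further non-coding genes of chromosome 9. Snord50a (chr9:88521529-88521600, Snhg5) had 1276, 1123 and 1146 CPM in KO and 1226, 1227 and 1146 CPM in WT. Snord50b (chr9:88521797-88521868, Snhg5) had 714, 657 and 611 CPM in KO and 675, 692 and 666 CPM in WT. Its identical copy Gm26135 (chr9:88857693-88857764, 9330159M07Rik) had 700, 674 and 678 CPM in KO and 715, 654 and 622 CPM in WT. The identical pair had nearly equal counts in every library, with ratios of Snord50b to Gm26135 of 1.02, 0.975 and 0.900 in KO and 0.943, 1.06 and 1.07 in WT. Snord50a also has an identical copy outside the hosts, Gm24463 (chr9:89075336-89075407), yet its counts were 11.1 to 13.3 times those of that copy in KO and 10.8 to 11.6 times in WT. How reads were shared between identical copies was not stated.

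No member of the family was called. The log2 fold changes were 0.05 (SE 0.12) for Snord50a, 0.03 (SE 0.13) for Snord50b and 0.11 (SE 0.12) for Gm26135, with adjusted p of 0.932, 0.952 and 0.788 by edgeR. Gm23017 of 9430037G07Rik, 1 base away from Snord50a, was far rarer, with 12.5, 12.6 and 14.0 CPM in KO and 16.6, 14.0 and 12.9 CPM in WT (log2 fold change -0.09 with SE 0.21, edgeR adjusted p = 0.931).

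Snord1a, Snord1b and Snord1c lie in 1810032O08Rik, called Snhg16 in RefSeq, and their human counterparts guide 28S rRNA. Snord1b (chr11:116674148-116674222) had 1757, 882 and 938 CPM in KO and 1099, 977 and 1697 CPM in WT. Snord1c (chr11:116672506-116672581) had 869, 472 and 478 CPM in KO and 490, 451 and 799 CPM in WT. KO replicate 1 and WT replicate 3 were high for both and the other 4 libraries were close together. Snord93 of 2700038G22Rik (chr5:23852210-23852280), an 18S guide in human, had 46.6, 15.7 and 24.0 CPM in KO and 30.1, 27.4 and 41.3 CPM in WT. Mir3096 of AI506816 (chr5:23710991-23711061), its near copy, had 578, 384 and 404 reads in KO and 533, 413 and 627 reads in WT, or 7.41 to 11.9 CPM in KO and 9.10 to 12.3 CPM in WT.

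In these 4 members KO replicate 1 and WT replicate 3 were the top pair of libraries, and the same held for 105 of all 624 tested features (16.8%), so 4 of 24 is near the background. All 4 are among the 6 tested members without the box C letters TGATGA, a coincidence noticed after the values were seen and not tested. Snord1a, also without them, did not follow: it had 4.39, 3.22 and 4.14 CPM in KO and 4.78, 4.63 and 4.49 CPM in WT. All KO values lay below all WT values, with a log2 fold change of -0.18 (SE 0.24, edgeR adjusted p = 0.824). The estimates of the other 4 were -0.00 (SE 0.34) for Snord1b, 0.14 (SE 0.34) for Snord1c, -0.12 (SE 0.43) for Snord93 and -0.10 (SE 0.28) for Mir3096. Their adjusted p by edgeR were 1.00, 0.931, 0.947 and 0.941. Leaving out 1 library moved the estimate of Snord1b between -0.33 and 0.37, the low end without KO replicate 1 and the high end without WT replicate 3. Snord93 moved between -0.61 without KO replicate 1 and 0.24 without KO replicate 2.

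**Figure D3:**
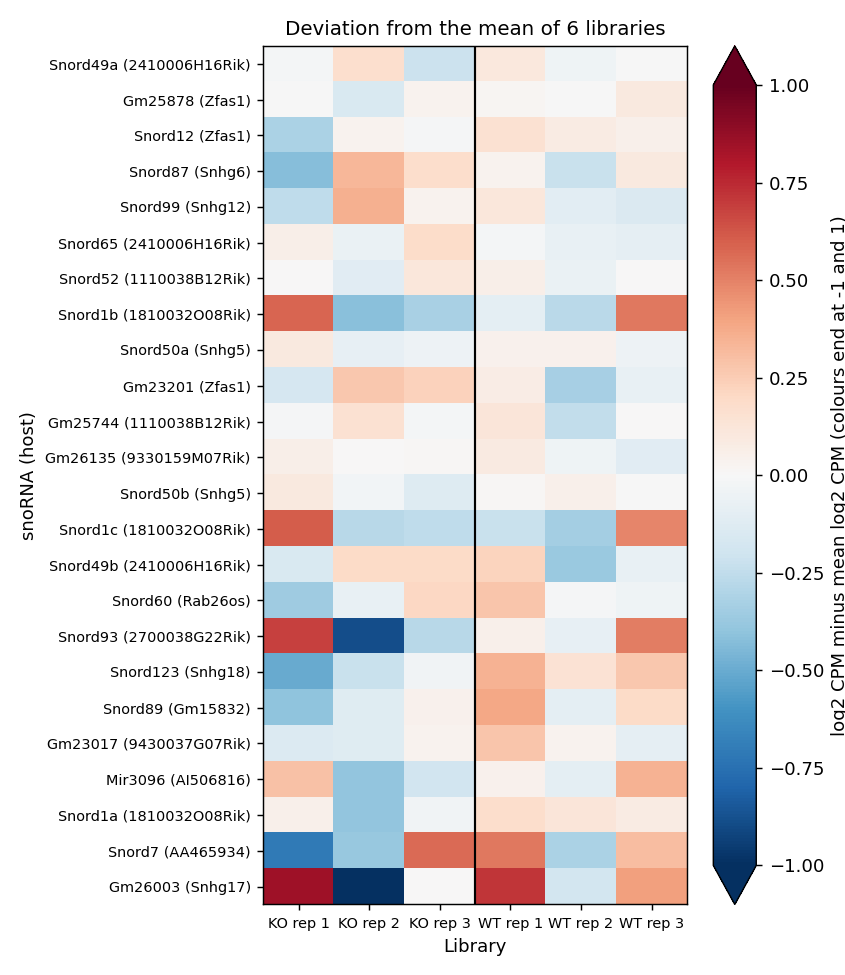
Deviation of each tested snoRNA (rows, host in brackets, ordered by mean level) from its mean log2 CPM over the 6 libraries (columns, KO left of the black line, WT right), with red for above and blue for below the mean. Snord1b stands at 0.58 in KO replicate 1 and 0.53 in WT replicate 3, and Snord1c and Snord93 share that pattern, while no column block separates the genotypes.

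Among the less abundant members, Snord123 of Snhg18 (chr15:32241853-32241923) had the lowest estimate and the smallest p. It had 15.3, 18.7 and 21.2 CPM in KO and 27.7, 24.1 and 26.2 CPM in WT. All KO values lay below all WT values, with 18.4 ± 3.0 CPM in KO and 26.0 ± 1.8 CPM in WT (SD, n = 3 each). The log2 fold change of Snord123 was -0.44 (SE 0.21, edgeR adjusted p = 0.710), so it was not called. Its estimate was below 0 under each of the 14 alternatives run, and nearest to 0 without KO replicate 1, at -0.25. Snord12, Snord1a and Snord123 were the 3 of 24 members whose groups did not overlap in CPM, where 15.2% of all features did not. TMM factors were not applied there, and they were 0.945, 0.957 and 1.03 in KO and 1.03, 1.02 and 1.02 in WT. With CPM divided by these factors, Snord12 and Snord1a overlapped and Snord123 stayed apart. Snord65, which overlapped in CPM, came apart. The share over all features was not redone that way.

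Snord60 of Rab26os (chr17:24528476-24528553), a 28S guide in human, had 114.9, 140 and 170 CPM in KO and 178, 146 and 143 CPM in WT (log2 fold change -0.08 with SE 0.18, edgeR adjusted p = 0.931). Snord89 (chr1:39548745-39548854) lies in Gm15832, a symbol that RefSeq lists as a synonym of the protein-coding gene Rnf149, so its place among non-coding hosts depends on the annotation. It had 14.96, 18.1 and 20.3 CPM in KO and 25.9, 18.5 and 22.6 CPM in WT (log2 fold change -0.27 with SE 0.23, edgeR adjusted p = 0.759). Snord7 of AA465934 (chr11:83294304-83294400), whose human counterpart guides the U6 spliceosomal RNA, had 0.908, 1.14 and 2.20 CPM in KO and 2.14, 1.19 and 1.83 CPM in WT. In all 3 the groups overlapped. Snord7 rested on 44 to 114 reads a library and Gm26003 on 6 to 35, and their adjusted p by edgeR were 0.873 and 0.931.

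Most tested members sat at a like place in their intron, which the rule did not use. In GENCODE each of the 24 lies in an intron of at least 1 transcript of its host, and 15 also overlap an exon of another transcript of that host. The distance from the snoRNA's 3′ end to the next exon, in the shortest such intron, had a median of 82.0 nt, and 15 of 24 lay 60 to 90 nt from it. The trait is not particular to the members. At 60 to 90 nt lay 20 of 37 tested in ribosomal protein genes (median 82 nt) and 12 of 17 in Gas5 and Snhg1 (73 nt). In other protein-coding genes it was 20 of 66 (195.5 nt). In the window of 60 to 110 nt, chosen after the values were seen, there were 18 members, with a median level of 1451 CPM per 100 nt of length. The 6 outside it, Gm26003, Snord7, Snord93, Mir3096, Snord1a and Snord89, had a median of 9.85 CPM per 100 nt and at most 43.5. Within 1810032O08Rik, Snord1a ends 817 nt before the next exon, Snord1b 77 nt and Snord1c 82 nt, and per nucleotide Snord1b was 296 ± 88 times as abundant as Snord1a in KO and 269 ± 90 times in WT. Members at like distances also differed: Snord49a, Snord65 and Snord49b end 75, 68 and 84 nt before the exon, and Gm25878, Snord12 and Gm23201 of Zfas1 end 70, 68 and 72 nt before it, with the unequal levels given above.

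**Figure D4:**
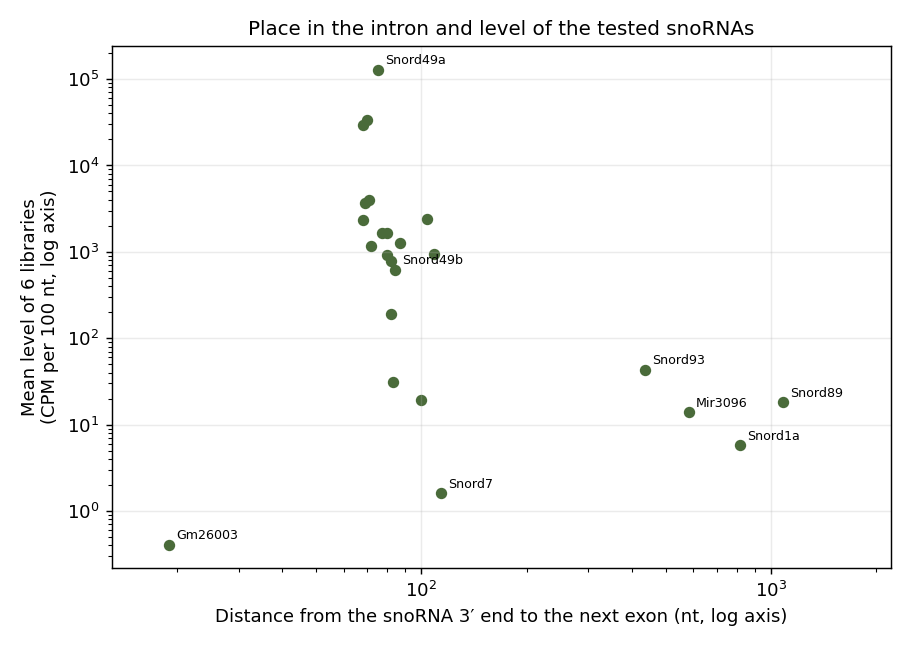
Mean level over the 6 libraries (CPM per 100 nt, log axis) of each tested snoRNA against the distance from its 3′ end to the next exon of its host (nt, log axis). The 16 members above 100 CPM per 100 nt lie within 60 to 110 nt of the exon, and those farther away or nearer are labelled and lie at or below 43.5.

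The same window was read for C/D-length snoRNAs of other hosts. Of 120 tested in ribosomal protein genes, other protein-coding genes, Gas5 and Snhg1, 62 lay in that window with a median of 1047 CPM per 100 nt and 58 lay outside it with a median of 297. Above 100 CPM per 100 nt stood 16 of 18 members in the window and 0 of 6 outside it, against 52 of 62 and 34 of 58 for the other hosts. Because the window was set with the members' levels seen, the 0 of 6 and its contrast with the other hosts carry no weight as evidence. The upper edge falls between Gm26135 at 109 nt and Snord7 at 114 nt. Inside the window, Gm23017 and Snord123 had 19.1 and 31.3 CPM per 100 nt, below the highest level outside it. All these counts are descriptions with no test.

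Snhg14, the long paternally expressed transcript beyond Snrpn on chromosome 7, hosts the tandem Snord115 and Snord116 arrays, which are known from neurons and from the Prader-Willi region in human. It holds 208 of the 236 annotated members, and very few reads were counted on them. Of these members, 165 had no read in any library and 43 had 67 reads in all, at most 3 for 1 feature in 1 library. Many copies are nearly identical, and how reads with several matches were handled is not stated. The low counts therefore need not mean that little of this RNA was present. The reads were 5, 14 and 2 in KO and 14, 7 and 25 in WT. The groups overlapped, and each library's count is small: its exact Poisson 95% interval, for counting error only, was 7.65 to 23.5 for KO replicate 2 and 16.2 to 36.9 for WT replicate 3. Pooled, the level was 0.142 CPM in KO (interval 0.0881 to 0.217) and 0.308 CPM in WT (interval 0.225 to 0.410), and these intervals leave out the spread between libraries. None passed the filter, and without a filter edgeR called none of the 68 members.

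The Snhg14 reads fell on 2 kinds of copy. The 37 listed features of 94 nt, which are at least 96.8% identical to Snord116l1, had 5, 7 and 2 reads in KO and 14, 7 and 25 in WT. The 6 listed features of 78 or 79 nt, at most 56.4% identical to Snord116l1, had 7 reads in KO replicate 2 and none in the other 5 libraries. KO replicate 2 is the library with the muscle miRNA reads. The remaining listed member, Gm23362 of Gm42788, had 1 read, in KO replicate 3.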

How the data were processed

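The deposited values are raw counts that the authors made by feature, in a table for each library, with features named by position and features without a read left unlisted (set to 0 here). Per the labels' protocols, total RNA went through a small RNA kit and products of snoRNA size plus adapters were cut from a gel, so RNA length affects recovery. The submitters' processing notes name GRCm38 as the build and, among the tools, Bowtie2 2.3.4.1 and Trimmomatic 0.38. The sources used here do not name the counting tool, its annotation or strand setting, or how reads with several matches were handled.

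Of 1823 features, 1822 matched GENCODE M21. All features were tested, KO against WT, with edgeR 4.0.16 in R 4.3.3 (TMM, default filter with minimum count 10 and minimum total 15, quasi-likelihood test, two-sided, Benjamini-Hochberg over 624 features, threshold 0.05). SE is the log2 fold change over the square root of F and approximate. DESeq2 1.42.0 and other scalings, filters and left-out libraries were alternatives. Values in every library are given for the 12 most abundant members, the top member of each host, any with unadjusted p under 0.05, and near copies; the rest were added as seen. The members and lists were chosen with earlier results of these data known. The scripts were tested on simulated data. No 2 replicates agreed within sampling noise (chi-square per degree of freedom 530 to 3308 over 6 pairs).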

Additional observations from a re-analysis of the deposited data

How the results depend on the processing

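No member was called under any of the 14 alternatives run. Over all features 1 was called, 13 without the filter, and 0 with the replicate block, without KO replicate 3 and without each WT replicate in turn. The summed level, host sums and the ratio to ribosomal protein hosts moved by less than their spread between libraries, except Zfas1, whose log2 ratio of means was -0.054 with TMM scaling against -0.12 with CPM. The Zfas1 groups, apart in CPM, overlapped with TMM scaling. The median of all features was -0.08 with TMM, 0.02 with RLE and -0.16 with library size alone, and the members were 12 lower and 12 higher, 7 and 17, and 15 and 9. Estimates changed sign under some alternative for 14 members, named here. With library size alone Snord49a was -0.037, Snord50a -0.022 and Snord50b -0.036. With RLE Gm25878 was 0.094, Snord1b 0.10, Snord60 0.029, Gm23017 0.017 and Mir3096 3.4e-06, and with DESeq2 the first 4 were 0.094, 0.10, 0.029 and 0.016. With no filter, at least 50 counts in 3 libraries, and copies summed, Gm25878 was 0.043, 0.060 and 0.063 and Snord1b 0.055, 0.069 and 0.072.

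With 1 library left out, log2 fold changes that crossed 0 ranged from -0.010 to 0.20 (Snord49a), 0.030 to 0.12 (Gm25878), -0.13 to 0.058 (Snord12), -0.33 to 0.37 (Snord1b), -0.15 to 0.54 (Snord1c), -0.14 to 0.12 (Snord60), -0.61 to 0.24 (Snord93), -0.073 to 0.11 (Gm23017), -0.26 to 0.13 (Mir3096), -0.20 to 0.0078 (Snord1a), -0.60 to 0.068 (Snord7) and -0.89 to 0.26 (Gm26003). With the replicate block 0 members were called, and same-numbered libraries had deviations correlated at -0.13, 0.40 and -0.36. The highest correlation was 0.59, between KO replicate 1 and WT replicate 3. Whether the libraries were made in pairs cannot be told from these values. The cause of the shifts in the estimates was not tested. Depth was lowest for Gm26003, with 6 to 35 reads a library, and Snord7, with 44 to 114. The exclusion of Snord49a was added after seeing the data and left a summed log2 ratio of -0.08. Without Snord49a the means of the genotypes differed by more than the larger SD, though the groups overlapped.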
